A study of Homo sapiens with 16 samples.

Results

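The BCL2 family was followed through 10 genes, BCL2, BCL2L1, MCL1, BAX, BAK1, BCL2L11, BBC3, BID, PMAIP1 and BMF, in 2 multiple myeloma (MM) cell lines given inhibitors of the histone methyltransferases EZH2 and G9a. The genes were found by their symbol in the scanner files, which gave 16 probes for the 10 genes, of 32080 gene symbols on the array. All 16 probes were well above background on all 16 arrays, so every gene was tested in every comparison.

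Expression was measured on 1-colour arrays, 1 array for each RNA sample, in RPMI-8226 and MM.1S, established human MM cell lines. The 4 groups of each line had been kept for 6 days with DMSO, with GSK126 (1 µM), with UNC0638 (1 µM), or with both agents together at 1 µM of each, written GSK126+UNC0638 here. GSK126 blocks EZH2, which trimethylates H3K27, and UNC0638 blocks G9a and its partner GLP, which methylate H3K9. Each of the 8 groups had 2 biological replicates. Each line is a single culture model of the disease, without the bone marrow cells around it, and all 8 arrays of a line lay on 1 slide, so the cell line and the slide cannot be told apart. On a slide each treatment had a column and each replicate number a row of its own.

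Spots with a signal well above background made up 46.5% to 49.7% of each RPMI-8226 array and 49.9% to 52.8% of each MM.1S array, and no spot was saturated. All 11 plasma cell markers found on the array were well above background on all 8 arrays of both lines, while of 3 mature B cell markers none was so on all 8 arrays of either line, PAX5 on no array and MS4A1 on 5 of RPMI-8226 and 2 of MM.1S. Of the other lists, 3 of 4 T cell and 2 of 3 myeloid markers were well above background on all 8 arrays of each line, none of 3 stromal markers was, and of 2 epithelial markers both were in RPMI-8226 and KRT8 in MM.1S. In MM.1S the summed level of the plasma cell markers was 9.5 to 9.55 with DMSO and 8.95 to 8.97 with both agents on the log2 scale. That of the myeloid markers was -2.40 to -2.38 and -0.63 to -0.31, and that of the mature B cell markers -5.07 to -5.04 and -3.14 to -2.77. That of the T cell markers was 3.20 to 3.24 and 2.63 to 2.67. That of the stromal markers was -4.02 to -3.72 and -3.71 to -3.52, and that of the epithelial markers -0.79 to -0.69 and -1.95 to -1.62. In RPMI-8226 the myeloid sum was -0.85 to -0.06 with DMSO and 2.15 to 2.39 with both agents. The mature B cell sum was -4.75 to -4.48 and -0.73 to 0.27, and the plasma cell sum 8.62 to 8.84 and 7.96 to 8.31. The T cell sum was 2.54 to 2.61 and 3.28 to 3.34, higher with both agents where it was lower in MM.1S. The stromal sum was -4.62 to -3.70 and -2.42 to -2.16, and the epithelial sum 4.97 to 5.37 and 3.96 to 4.21. None of these sums overlapped between DMSO and both agents, and their part in the results was not tested. The cells were measured in bulk, so fewer cells of a type and less RNA per cell cannot be told apart.

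Proteins of the BCL2 family decide whether the outer mitochondrial membrane is opened, the step that frees cytochrome c and commits a cell to apoptosis. BAX and BAK1 form the pore, the survival proteins BCL2, BCL-xL (the product of BCL2L1) and MCL1 hold them in check, and the BH3-only proteins BIM (BCL2L11), PUMA (BBC3), BID, NOXA (PMAIP1) and BMF bind the survival proteins or the pore formers and tip the balance to death. MM cells are known for their dependence on survival proteins of this family, MCL1 above all.

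The level of a gene is given as the log2 intensity of its probe minus the 75th percentile of its array, and differences are differences of group means with the standard error (SE) of the fit. A gene is called where limma's adjusted p was below 0.05, with 1 probe, the brightest over the 16 arrays, standing for the gene. Levels of different probes are not set against each other. Where genes with an unadjusted p below 0.05 are counted, the share of all genes at that threshold was not counted. The shares printed are of genes called by adjusted p and are no background for those counts.

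With GSK126+UNC0638 in MM.1S all 10 genes were called against DMSO, 6 higher and 4 lower, and in none did the arrays of both groups overlap, which held for 80.0% of all genes. Of all 16986 genes tested there, 23.2% were called higher and 32.0% lower. BCL2L11 counts as higher by its brightest probe, although another of its probes was called lower, and the second BCL2 probe was not called. The median difference of the 10 genes was 0.40 on the log2 scale, against -0.11 over all genes. It was 0.64 against -0.07 after quantile normalization, 0.59 against 0.08 with the percentile taken over probes detected on all arrays, and 0.65 against -0.04 with normexp background correction before quantile normalization. Genes were called in both directions, so these medians do not describe a shift shared by the 10 genes. They also rest on the brightest BCL2L11 probe. The calls of BMF, BBC3, BAX, BAK1 and BCL2L1 held whichever 1 of the 8 arrays was left out, and those of BCL2, MCL1, BCL2L11, BID and PMAIP1 were lost without 3, 3, 2, 4 and 2 of them, each time from the DMSO or the combination group. BMF and BBC3 rose most, PMAIP1 fell most, and the survival genes moved apart, since BCL2 and MCL1 rose and BCL2L1 fell. In RPMI-8226 none of the 10 genes was called with the same treatment by limma. Of the 10, 5 had an unadjusted p below 0.05, a share not counted over all genes. Arrays that did not overlap with DMSO were seen for 8 (62.4% of all genes had). There 8.06% of 16018 genes were called higher and 5.03% lower. That none of the 10 was called in RPMI-8226 depended on the scaling. BMF and PMAIP1 were called higher there after quantile normalization, with the percentile over detected probes and with normexp.

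**Figure D1:**
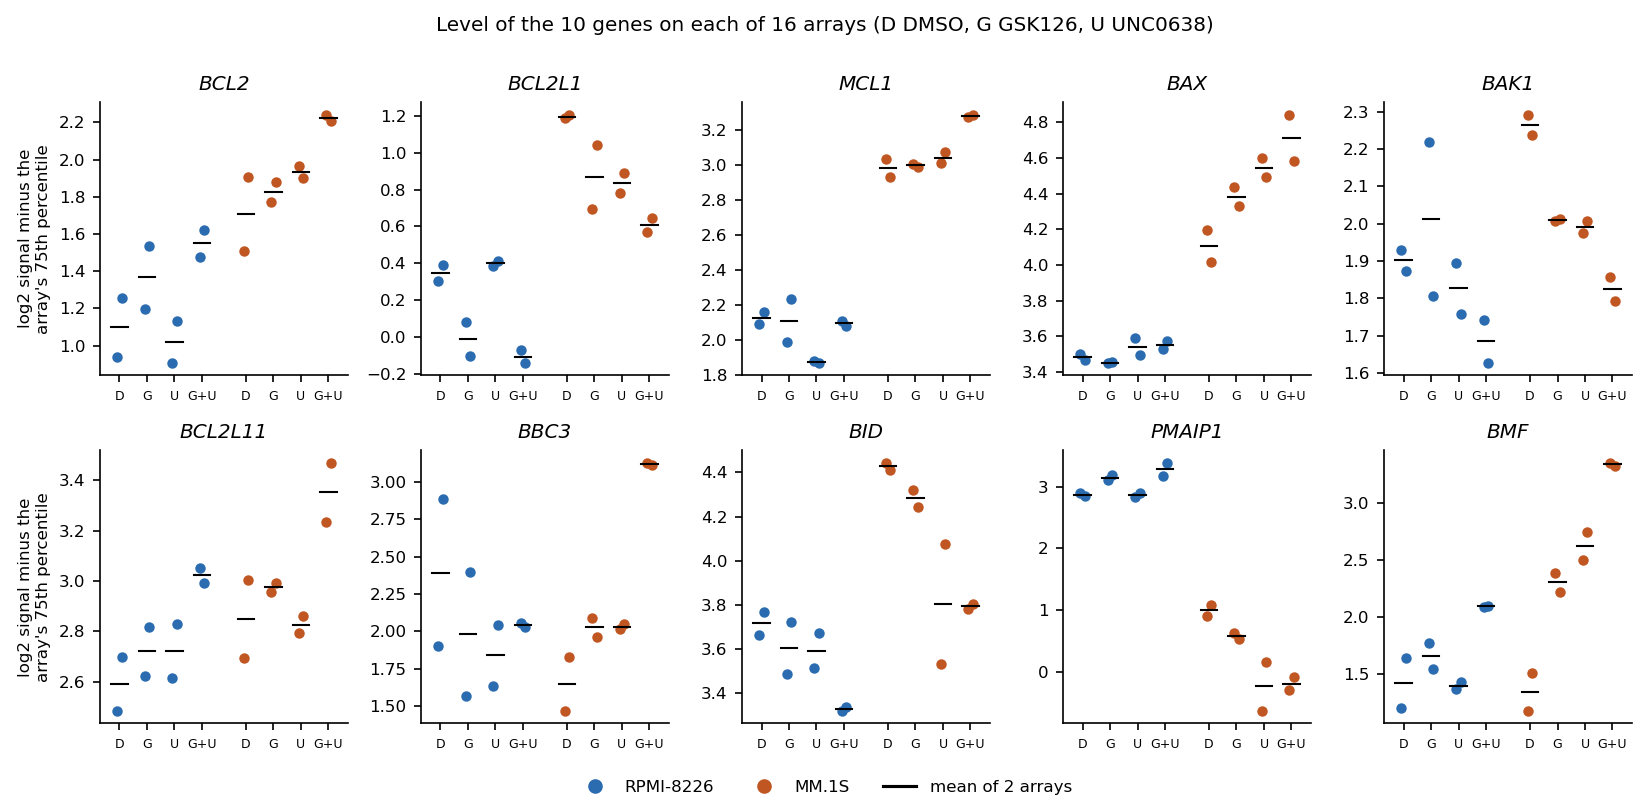
Level of each of the 10 genes (log2 signal minus the 75th percentile of the array, vertical axis, with its own scale in each panel) on the 16 arrays, by group along the horizontal axis, where points are arrays and bars are means of 2 arrays. In MM.1S the GSK126+UNC0638 arrays of BMF lie at 3.36 and 3.33 above DMSO arrays at 1.17 and 1.51, while those of PMAIP1 lie at -0.30 and -0.09 below DMSO arrays at 0.91 and 1.09.

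**Figure D2:**
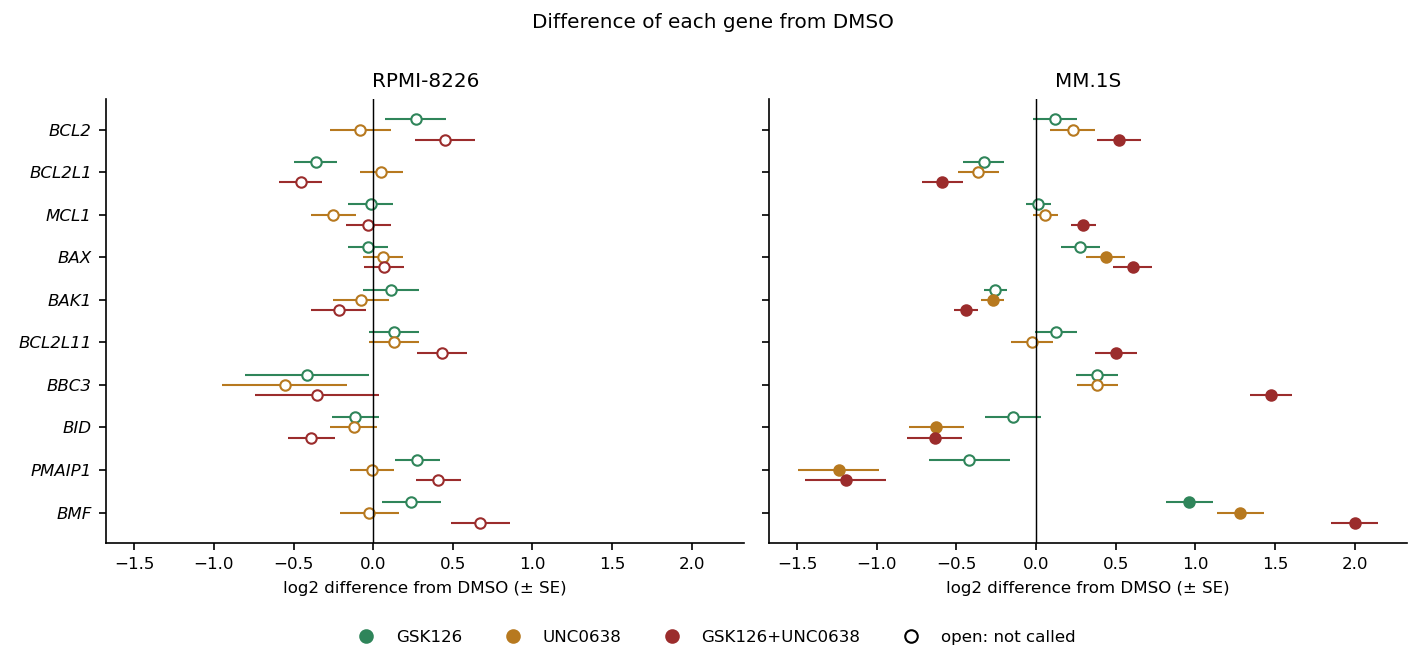
Log2 difference of each gene, by its brightest probe, from the DMSO group of its line (horizontal axis, with SE as bars) for the 3 treatments, with filled points for called genes. In MM.1S 1 gene was called for GSK126, 5 for UNC0638 and 10 for their combination, and every point of RPMI-8226 is open.

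Of the survival genes, BCL2, the namesake of the family and target of the drug venetoclax, had levels of 1.51 and 1.91 in MM.1S with DMSO, 1.77 and 1.88 with GSK126, 1.97 and 1.90 with UNC0638 and 2.24 and 2.21 with GSK126+UNC0638. The combination arrays were the highest and the only group that did not overlap with DMSO, whose 2 arrays were 0.40 apart, the widest gap of the 8 groups. The rise with the combination was 0.52 ± 0.14 on the log2 scale (limma, adjusted p = 0.0219). Without the first DMSO array it was 0.32 and not called (limma, adjusted p = 0.0668). The levels of BCL2 in RPMI-8226 were 0.94 and 1.26 with DMSO, 1.20 and 1.53 with GSK126, 0.91 and 1.13 with UNC0638 and 1.48 and 1.62 with GSK126+UNC0638, and the difference of 0.45 ± 0.19 for the combination was not called (limma, adjusted p = 0.162). A second BCL2 probe, 194678 bases away, was not called in either line, with 0.33 ± 0.13 in MM.1S (limma, adjusted p = 0.0812) and -0.01 ± 0.17 in RPMI-8226 for the combination.

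BCL2L1 had levels of 1.19 and 1.21 in MM.1S with DMSO, 0.69 and 1.04 with GSK126, 0.78 and 0.89 with UNC0638 and 0.57 and 0.65 with GSK126+UNC0638. Every treated array was below both DMSO arrays, and the combination fell by 0.59 ± 0.13 (limma, adjusted p = 0.00996), while the single agents were not called, with -0.33 ± 0.13 for GSK126 and -0.36 ± 0.13 for UNC0638. In RPMI-8226 the gene stood at 0.31 and 0.39 with DMSO, 0.08 and -0.10 with GSK126, 0.38 and 0.41 with UNC0638 and -0.07 and -0.14 with GSK126+UNC0638. Both groups given GSK126 lay below DMSO there and the UNC0638 group overlapped it, with a difference of -0.46 ± 0.14 for the combination (limma, adjusted p = 0.0742). It was the only one of the 10 genes with an unadjusted p below 0.05 for GSK126 alone in RPMI-8226, with -0.36 ± 0.14 (limma, adjusted p = 0.413).

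MCL1, whose protein turns over fast and is targeted by NOXA, had the smallest change of the 10 in MM.1S with the combination. Its levels were 3.03 and 2.93 with DMSO, 3.0 and 2.99 with GSK126, 3.01 and 3.07 with UNC0638 and 3.27 and 3.29 with GSK126+UNC0638. The 6 arrays outside the combination lay between 2.93 and 3.07 and the combination rose by 0.30 ± 0.08 (limma, adjusted p = 0.0205). In RPMI-8226 its levels were 2.09 and 2.16 with DMSO, 1.99 and 2.23 with GSK126, 1.88 and 1.87 with UNC0638 and 2.11 and 2.08 with GSK126+UNC0638. There the combination overlapped DMSO, at -0.03 ± 0.14, and the UNC0638 arrays were the lowest, at -0.25 ± 0.14 (limma, adjusted p = 0.668).

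The pore-forming genes moved in opposite directions in MM.1S. BAX, which rests in the cytosol until it is activated, had levels of 4.20 and 4.02 with DMSO, 4.44 and 4.33 with GSK126, 4.6 and 4.49 with UNC0638 and 4.84 and 4.58 with GSK126+UNC0638. All treated arrays were above both DMSO arrays, and BAX rose by 0.44 ± 0.12 with UNC0638 (limma, adjusted p = 0.0425) and by 0.61 ± 0.12 with the combination (limma, adjusted p = 0.00764). The UNC0638 call was less firm than that of the combination. The second BAX probe, 450 bases away, rose by 0.29 ± 0.10 with the combination (limma, adjusted p = 0.0453). BAX was the steadiest of the genes in RPMI-8226, where its 8 arrays lay between 3.45 and 3.59 and the combination differed by 0.07 ± 0.13.

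BAK1, which sits in the mitochondrial membrane and is held there by MCL1 and BCL-xL, had levels of 2.29 and 2.24 in MM.1S with DMSO, 2.01 and 2.01 with GSK126, 1.98 and 2.01 with UNC0638 and 1.86 and 1.79 with GSK126+UNC0638. All 6 treated arrays were below both DMSO arrays, with a fall of 0.27 ± 0.07 for UNC0638 (limma, adjusted p = 0.0388) and of 0.44 ± 0.07 for the combination (limma, adjusted p = 0.00383), and -0.26 ± 0.07 for GSK126, which was not called (limma, adjusted p = 0.0908). The UNC0638 call was not firm, since it was lost after quantile normalization, with the percentile over detected probes and with normexp. In RPMI-8226 its levels were 1.93 and 1.87 with DMSO, 2.22 and 1.81 with GSK126, 1.89 and 1.76 with UNC0638 and 1.74 and 1.63 with the combination, whose difference of -0.22 ± 0.17 was not called.

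BCL2L11 encodes BIM, a BH3-only protein that binds all survival proteins and is made in several splice forms. Its 3 probes did not move together. The last 30 bases of each 60-base probe are shown, 5′ to 3′, because the probe that moved the other way is the one of the 3 that holds AATAAA, the canonical polyadenylation hexamer, in capitals here. On hg19 the probes lie on the plus strand at chr2:111925892-111925951 (A_24_P122921), chr2:111886352-111886411 (A_33_P3251932) and chr2:111878705-111878764 (A_33_P3398526).
A_24_P122921: gggtaattgccactttacttgtgcaatact
A_33_P3251932: tatggtcattggtgattaAATAAAatgtat
A_33_P3398526: tgactctgactctcggactgagaaacgcaa
The hexamer was searched on the probe strand and occurs in 3986 of 50599 probes on the array (7.88%), and in 2 of the 16 probes described here. The match is a description of the letters, and the transcript end that a probe reads was not tested.

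The brightest BCL2L11 probe, A_24_P122921, had levels of 2.69 and 3.0 in MM.1S with DMSO, 2.96 and 2.99 with GSK126, 2.79 and 2.86 with UNC0638 and 3.23 and 3.47 with GSK126+UNC0638. Only the combination arrays lay above both DMSO arrays, by 0.50 ± 0.13 (limma, adjusted p = 0.0209). A_33_P3398526 showed the same order, with 0.36 and 0.49 for DMSO, 0.77 and 0.48 for GSK126, 0.32 and 0.25 for UNC0638 and 0.77 and 0.94 for the combination, a rise of 0.43 ± 0.13 (limma, adjusted p = 0.0306). A_33_P3251932, which lies between both, went down, with 0.83 and 1.07 for DMSO, 0.65 and 0.57 for GSK126, 0.62 and 0.42 for UNC0638 and 0.47 and 0.10 for the combination, a fall of 0.67 ± 0.16 (limma, adjusted p = 0.0136). With the mean of the 3 probes in place of the brightest, the difference of the combination was 0.09 (limma, adjusted p = 0.493). Over the 16 arrays, with the mean of each line removed, the levels of the brightest probe had r = 0.74 with A_33_P3398526 and r = -0.45 with A_33_P3251932, as a description.

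**Figure D3:**
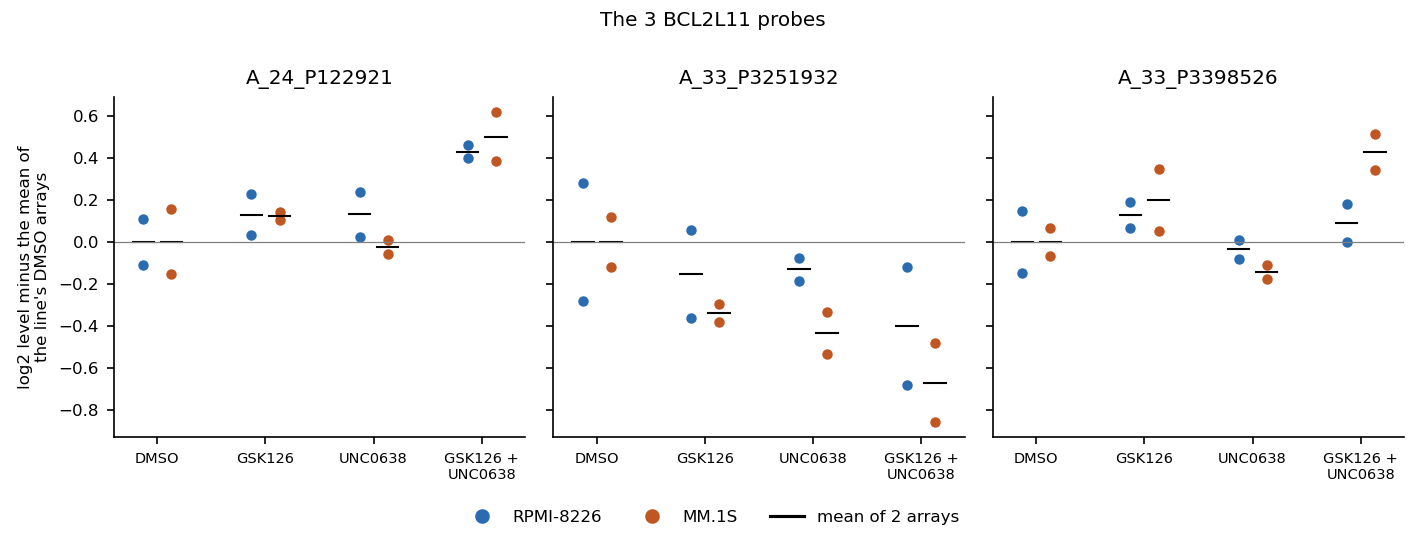
Level of the 3 BCL2L11 probes on each array minus the mean of the DMSO arrays of its line (log2, vertical axis), by treatment, where points are arrays and bars are means of 2 arrays. With GSK126+UNC0638 in MM.1S the outer panels rise by 0.50 and 0.43 and the middle panel falls by 0.67.

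In RPMI-8226 the brightest BCL2L11 probe had levels of 2.48 and 2.70 with DMSO, 2.62 and 2.82 with GSK126, 2.62 and 2.83 with UNC0638 and 3.05 and 2.99 with GSK126+UNC0638. The combination arrays were the highest and did not overlap with DMSO, at 0.43 ± 0.16, and were not called (limma, adjusted p = 0.120). The other probes differed by -0.40 ± 0.28 (A_33_P3251932) and 0.09 ± 0.16 (A_33_P3398526) there.

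BBC3 encodes PUMA, a direct p53 target that binds all survival proteins. In MM.1S its levels were 1.47 and 1.83 with DMSO, 2.09 and 1.97 with GSK126, 2.01 and 2.05 with UNC0638 and 3.13 and 3.12 with GSK126+UNC0638. Both single agents stood just above DMSO, by 0.38 ± 0.13 each, and were not called, and the combination lay far above all other arrays with a 2.78-fold rise, 1.48 ± 0.13 on the log2 scale (limma, adjusted p = 0.000485). In RPMI-8226 its levels were 1.90 and 2.88 with DMSO, 1.56 and 2.40 with GSK126, 1.63 and 2.04 with UNC0638 and 2.05 and 2.03 with GSK126+UNC0638. The DMSO replicates were 0.98 apart, the widest gap between replicates of any of the 16 probes, and the difference of -0.35 ± 0.39 for the combination was within it. Without the second DMSO array that difference was 0.14.

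BID, the link from death receptors to mitochondria once caspase-8 has cut it, had levels of 4.44 and 4.41 in MM.1S with DMSO, 4.32 and 4.24 with GSK126, 3.53 and 4.08 with UNC0638 and 3.78 and 3.80 with GSK126+UNC0638. All treated arrays were below DMSO, with a fall of 0.63 ± 0.17 for UNC0638 (limma, adjusted p = 0.0415) and of 0.64 ± 0.17 for the combination (limma, adjusted p = 0.0231). The UNC0638 arrays were 0.55 apart, and without the first of them the difference was -0.35 and not called (limma, adjusted p = 0.0806). The second BID probe, 83 bases away, gave a tighter series, with 4.41 and 4.34 for DMSO, 4.26 and 4.23 for GSK126, 4.02 and 3.99 for UNC0638 and 3.70 and 3.64 for the combination. It fell by 0.37 ± 0.08 with UNC0638 (limma, adjusted p = 0.0165) and by 0.70 ± 0.08 with the combination (limma, adjusted p = 0.000810). In RPMI-8226 the brightest BID probe had its lowest arrays with the combination, at 3.32 and 3.33 against 3.66 and 3.77 with DMSO, a difference of -0.39 ± 0.15 that was not called (limma, adjusted p = 0.130).

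PMAIP1 encodes NOXA, which binds MCL1 and speeds its removal. In MM.1S its levels were 0.91 and 1.09 with DMSO, 0.63 and 0.54 with GSK126, -0.64 and 0.16 with UNC0638 and -0.30 and -0.09 with GSK126+UNC0638. All treated arrays were below DMSO, and both groups given UNC0638 were below GSK126 alone. The fall was 2.36-fold with UNC0638, -1.24 ± 0.25 on the log2 scale (limma, adjusted p = 0.0168), and 2.29-fold with the combination, -1.19 ± 0.25 (limma, adjusted p = 0.00915). In RPMI-8226 the gene stood at 2.90 and 2.85 with DMSO, 3.1 and 3.19 with GSK126, 2.83 and 2.89 with UNC0638 and 3.17 and 3.39 with the combination, so the arrays given GSK126 were above DMSO, by 0.28 ± 0.14 alone and by 0.41 ± 0.14 in the combination, and neither was called (limma, adjusted p = 0.541 and 0.102). Under other scalings the rise with the combination was called.

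BMF, a BH3-only protein held on the cell's actin motors by a dynein light chain, rose most. In MM.1S its levels were 1.17 and 1.51 with DMSO, 2.39 and 2.22 with GSK126, 2.50 and 2.75 with UNC0638 and 3.36 and 3.33 with GSK126+UNC0638. No array of a group overlapped with those of another, and the order was DMSO, GSK126, UNC0638, combination, although the UNC0638 arrays stood only a little above those of GSK126. The gene rose 1.95-fold with GSK126 (0.96 ± 0.15 on the log2 scale, limma, adjusted p = 0.0212), 2.43-fold with UNC0638 (1.28 ± 0.15, limma, adjusted p = 0.00373) and 4.0-fold with the combination (2.0 ± 0.15, limma, adjusted p = 0.000315). The GSK126 call was less firm than the others. In RPMI-8226 its levels were 1.20 and 1.64 with DMSO, 1.77 and 1.55 with GSK126, 1.37 and 1.43 with UNC0638 and 2.09 and 2.10 with the combination. Only the combination lay clear of DMSO there, by 0.67 ± 0.18 (limma, adjusted p = 0.0611). This rise was not called in the main fit but was called under other scalings.

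The second BMF probe, 3534 bases away, was dim, with levels from -3.66 to -1.65, and rose in MM.1S by 1.18 ± 0.18 with UNC0638 (limma, adjusted p = 0.00693) and by 1.42 ± 0.18 with the combination (limma, adjusted p = 0.00127). In RPMI-8226 it was not called without a replicate block (0.70 ± 0.29, limma, adjusted p = 0.151). With the replicate number as a block it rose by 0.70 ± 0.16 (limma, adjusted p = 0.0310). Each replicate number had its own row on the slide, so paired samples and slide row cannot be told apart. The block changed no other call of the 16 probes against DMSO in that line.

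Promoter sequences are shown for BMF, BBC3 and PMAIP1, the 3 genes with the largest differences. Each is the 250 bases before the start in RefSeq (GRCh38.p14), 5′ to 3′ on the strand of the gene, with GGGCGG and CACGTG in capitals on either strand. They lie at chr15:40108880-40109129 (BMF, minus strand), chr19:47232668-47232917 (BBC3, minus strand) and chr18:59899746-59899995 (PMAIP1, plus strand).
BMF: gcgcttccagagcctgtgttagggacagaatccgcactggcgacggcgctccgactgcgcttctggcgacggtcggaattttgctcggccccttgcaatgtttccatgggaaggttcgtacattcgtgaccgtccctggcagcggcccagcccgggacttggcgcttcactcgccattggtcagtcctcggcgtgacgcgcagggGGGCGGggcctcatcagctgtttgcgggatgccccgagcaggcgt
BBC3: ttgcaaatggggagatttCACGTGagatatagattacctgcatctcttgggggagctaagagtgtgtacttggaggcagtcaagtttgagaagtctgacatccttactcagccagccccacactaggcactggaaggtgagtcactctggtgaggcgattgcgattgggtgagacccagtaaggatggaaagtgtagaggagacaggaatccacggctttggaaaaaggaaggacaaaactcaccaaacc
PMAIP1: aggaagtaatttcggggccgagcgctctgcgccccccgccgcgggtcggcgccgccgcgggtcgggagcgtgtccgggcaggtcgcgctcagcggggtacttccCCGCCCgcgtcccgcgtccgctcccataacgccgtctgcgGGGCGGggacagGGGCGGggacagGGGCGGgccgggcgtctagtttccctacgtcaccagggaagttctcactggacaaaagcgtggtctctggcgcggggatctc
The BMF window holds 26 CG pairs and 1 GGGCGG, the PMAIP1 window 36 CG pairs and 4 GGGCGG, and the BBC3 window 4 CG pairs and 1 CACGTG, against a median of 11 CG pairs over 35116 windows. GGGCGG, the box bound by SP1, occurs in 42.6% of all windows and CACGTG, the E-box read by MYC and its relatives, in 6.34%. A second BMF start has a window with 0 CG pairs.

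Windows were found for 9 of the 10 genes, 15 in all, of which those of the 5 BID starts overlap in part. GGGCGG was found in windows of 6 genes (BAX, BAK1, BCL2L11, BID, PMAIP1 and BMF) and CACGTG in those of 3 (BAX, BBC3 and BID), with 4 copies in the BAX window. Counted by window, as the shares of all windows are, GGGCGG was in 9 and CACGTG in 4 of the 15. GTAAACA, a motif of FOXO factors that occurs in 2.98% of all windows, was found for BCL2L11 only, and GAAANNGAA, the core of the interferon-stimulated response element, which occurs in 6.88%, for none of the 9. Both strands were searched, and a match or its absence describes these letters only.

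With the single agents in MM.1S, 1 of the 10 genes was called higher with GSK126 (BMF) and none lower, where 5.74% of all genes were called higher and 2.37% lower. With UNC0638, BMF and BAX were called higher and BAK1, BID and PMAIP1 lower, where 13.8% of all genes were called higher and 16.7% lower. The UNC0638 calls depended on the scaling, since BBC3 was also called higher after quantile normalization (limma, adjusted p = 0.0492), with the percentile over detected probes (0.0428) and with normexp (0.0189), BAK1 was called under none of the 3, and BID was called only with normexp. In RPMI-8226 none of the 10 was called by limma with GSK126, where 0.656% of all genes were called higher and 0.0562% lower. Of the 10, 1 had an unadjusted p below 0.05 there, a share not counted over all genes. None was called by limma with UNC0638 either, where 0.649% of all genes were called higher and 0.0749% lower. None of the 10 had an unadjusted p below 0.05 there, a share again not counted over all genes. The single-agent calls were less firm, since with 1 of 8 arrays left out BMF with GSK126 lost its call in 5 cases, and with UNC0638 BAX lost it in 6, BID in 7, BAK1 in all 8 and PMAIP1 in 2, while BMF kept it. All comparisons with DMSO share the DMSO arrays of their line.

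Against GSK126 alone, the combination raised BBC3 by 1.09 ± 0.13 (limma, adjusted p = 0.00285), BMF by 1.04 ± 0.15 (limma, adjusted p = 0.00442) and MCL1 by 0.28 ± 0.08 (limma, adjusted p = 0.0346) in MM.1S, which makes 3 of 10 called, where 38.3% of all genes were called in either direction. All 10 genes had arrays that did not overlap in that comparison, as had 72.4% of all genes. Against UNC0638 alone, 2 of 10 were called, BBC3 with 1.09 ± 0.13 (limma, adjusted p = 0.0128) and BMF with 0.72 ± 0.15 (limma, adjusted p = 0.0350), where 14.0% of all genes were called. PMAIP1 and the brightest BID probe lay level with UNC0638 alone, at 0.04 ± 0.25 and -0.01 ± 0.17, while the second BID probe was lower by 0.33 ± 0.08 (limma, adjusted p = 0.0422). In RPMI-8226 none of the 10 was called by limma against GSK126, where 2.77% of all genes were called. None of the 10 had an unadjusted p below 0.05 in that comparison, a share not counted over all genes. None was called by limma against UNC0638 either, where 3.70% of all genes were. Of the 10, 4 had an unadjusted p below 0.05 there, a share not counted over all genes.

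Departure from additivity is the difference of the combination minus the sum of the differences of the single agents. It was called by limma for none of the 10 genes in MM.1S, where 0% of all genes were called. Nor was it called for any of them in RPMI-8226, where 0.175% of all genes were. Of the 10, 1 had an unadjusted p below 0.05 in MM.1S and none in RPMI-8226, a share not counted over all genes. The 1 gene was BBC3, whose combination exceeded the sum by 0.71 ± 0.18 in MM.1S (limma, adjusted p = 0.384). BCL2L11 exceeded it by 0.40 ± 0.19, and BMF fell short of it, at -0.25 ± 0.21.

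**Figure D4:**
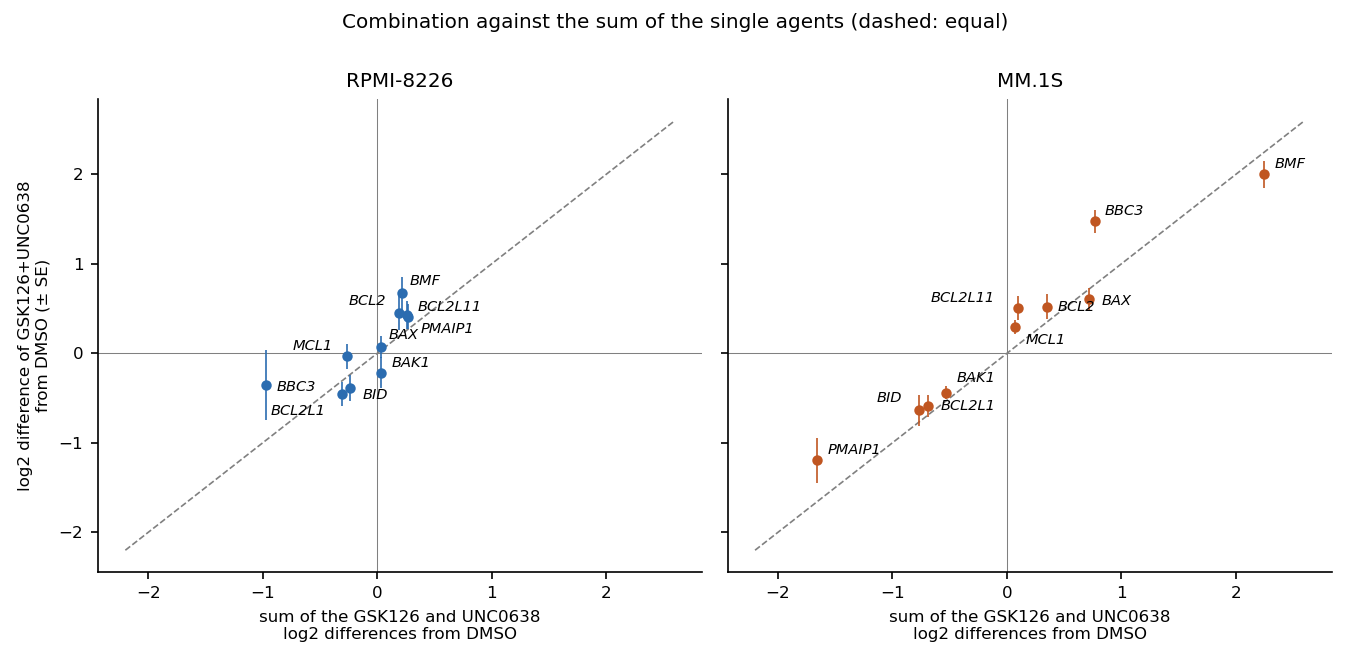
Log2 difference of GSK126+UNC0638 from DMSO (vertical axis, SE as bars) against the sum of the log2 differences of the single agents (horizontal axis) for the 10 genes in each line, with equality as a dashed line. BBC3 in MM.1S lies 0.71 above the line, and no departure was called.

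The response of 3 genes to the combination differed between the lines by the test of the difference itself, over all 16 arrays, where 14.4% of 18180 genes were called. PMAIP1 responded higher in RPMI-8226 by 1.60 ± 0.30 (limma, adjusted p = 0.00767), and BMF and BBC3 responded higher in MM.1S, by -1.33 ± 0.24 (limma, adjusted p = 0.00679) and -1.83 ± 0.45 (limma, adjusted p = 0.0270) as RPMI-8226 minus MM.1S. For BBC3 the call was lost when any 1 of 7 of the 16 arrays was left out, and without the second RPMI-8226 DMSO array, which stood 0.98 above the first, the difference was -1.34 (limma, adjusted p = 0.0675). For UNC0638 alone, BMF differed by -1.31 ± 0.24 (limma, adjusted p = 0.0220), a call lost without any 1 of 5 of the 16 arrays. It was 1 of 10 where 3.21% of all genes were called. For GSK126 alone none of the 10 was called by limma, where 0.913% of all genes were called. Of the 10, 2 had an unadjusted p below 0.05 for GSK126, a share not counted over all genes. The direction with the combination was the same in both lines for 7 of the 10 genes, a share not counted over all genes. MCL1, BBC3 and PMAIP1 had opposite signs, although in RPMI-8226, where none of the 3 was called, MCL1 turned positive under 3 other scalings, and MCL1 and BBC3 without the second DMSO array.

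The DMSO groups of the lines differed for 7 of the 10 genes, where 59.1% of all genes were called. PMAIP1 was 3.65-fold higher in RPMI-8226, with 1.87 ± 0.21 on the log2 scale (limma, adjusted p = 2.84e-05). MCL1, BCL2L1, BID, BAX, BCL2 and BAK1 were lower there, from -0.86 ± 0.10 for MCL1 (limma, adjusted p = 4.52e-05) to -0.36 ± 0.13 for BAK1 (limma, adjusted p = 0.0352), and BMF, BCL2L11 and BBC3 were not called. The lower level of BCL2 was that of its brightest probe. The DMSO arrays of the second BCL2 probe overlapped between the lines, with 0.51 and 0.68 in RPMI-8226 and 0.59 and 0.77 in MM.1S. BCL2L11 was again split, since the brightest probe was at -0.26 ± 0.14 and both others were called higher in RPMI-8226, by 0.88 ± 0.24 and 0.64 ± 0.14.

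The other genes of the pathway were taken from a list of 57, grouped by role, of which 53 were tested in each line. With the combination in MM.1S 11 were called higher and 25 lower, beside 23.2% and 32.0% of all genes, with a median of -0.26 beside -0.11. In RPMI-8226 4 were called higher and none lower, beside 8.06% and 5.03% of all genes, with a median of -0.10 beside -0.12. The excess of lower over higher calls in MM.1S depended on the scaling, with 16 higher and 18 lower after quantile normalization and with normexp, and 17 and 19 with the percentile over probes detected on all arrays. All 4 mitochondrial and ER partners (VDAC1, VDAC2, VDAC3 and BCAP31) were called lower in MM.1S, as were 7 of 12 genes of the apoptosome and caspases, including cytochrome c (CYCS, -0.86), where 32.0% of all genes were. After quantile normalization and with normexp these counts were 1 of 4 and 5 of 12, and with the percentile over detected probes 4 of 4 and 6 of 12. With GSK126 alone 1 was called higher and 4 lower in MM.1S, beside 5.74% and 2.37% of all genes. With UNC0638 alone 6 were called higher and 17 lower, beside 13.8% and 16.7% of all genes, and under the other scalings 7 were higher and 9 (quantile), 15 (percentile over detected probes) or 12 (normexp) lower.

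APAF1, the scaffold on which cytochrome c activates caspase-9, rose by 1.45 ± 0.12 in MM.1S (limma, adjusted p = 0.000398), from DMSO levels of -4.68 and -4.59 that were well above background on 1 of the 2 arrays, and was at 0.67 ± 0.35 in RPMI-8226. BIRC3, an inhibitor of apoptosis induced by NF-κB, rose by 0.97 ± 0.12 in MM.1S (limma, adjusted p = 0.00129) and by 1.72 ± 0.25 in RPMI-8226 (limma, adjusted p = 0.00860). MITF, which drives BCL2 in melanocytes, rose by 1.02 ± 0.18 in RPMI-8226 (limma, adjusted p = 0.0185) and was at -0.09 ± 0.21 in MM.1S.

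Of those that fell in MM.1S, MYC fell by 1.71 ± 0.12 (limma, adjusted p = 0.000294) and TRIB3, a target of the integrated stress response, by 1.26 ± 0.16 (limma, adjusted p = 0.00138), and in RPMI-8226 they stood at -0.61 ± 0.18 and -0.40 ± 0.15 and were not called. HRK, a further BH3-only gene, had levels of -3.72 and -3.59 with DMSO in MM.1S and was not well above background on the arrays with the combination, where it measured -5.39 and -6.86. With these arrays set to the lowest level well above background on each, the fall was 2.28-fold, which is not a strict limit. The call as lower (limma, adjusted p = 0.0217) rests on the values as measured, so the size of the fall is not known. The probe was kept through the DMSO and GSK126 groups. In RPMI-8226 HRK was brighter, at 0.16 and 0.18 with DMSO and 1.23 and 0.81 with the combination, and rose by 0.85 ± 0.17 (limma, adjusted p = 0.0254).

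**Figure D5:**
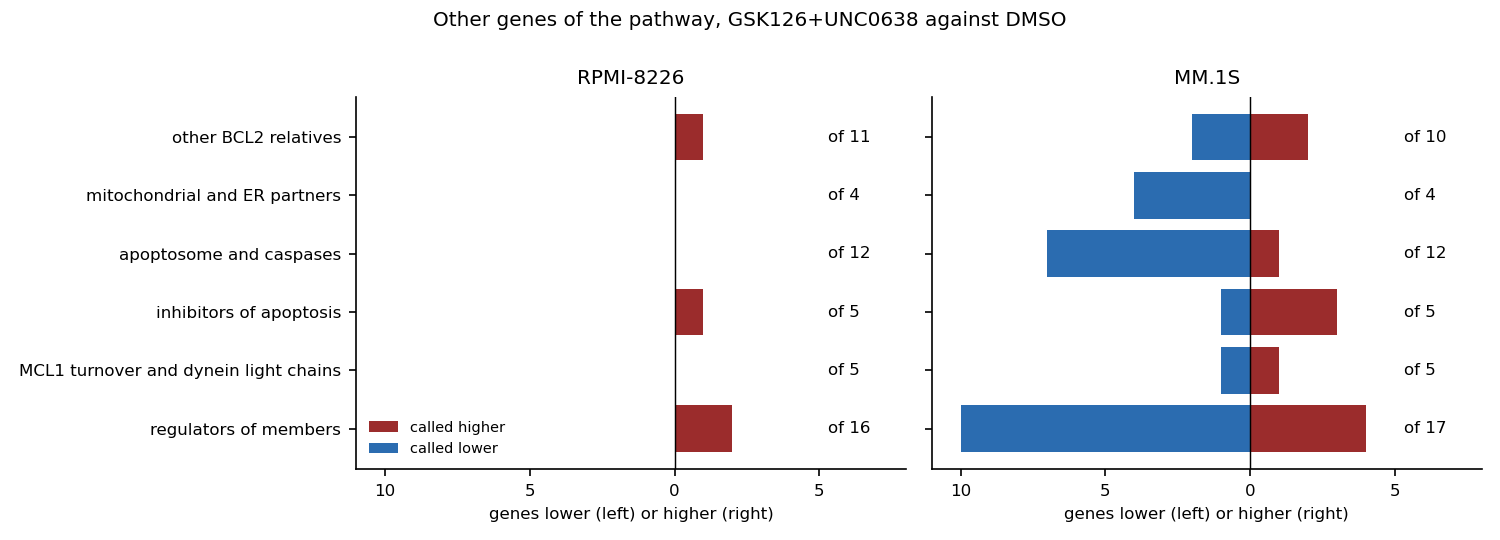
Number of other pathway genes called higher (right of 0) or lower (left of 0) with GSK126+UNC0638 against DMSO, by role along the vertical axis, with the number tested beside each bar. In MM.1S all 4 mitochondrial and ER partners are lower (1 of 4 after quantile normalization), and in RPMI-8226 the 4 calls are all higher.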

How the data were processed

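Total RNA of 16 samples, 2 for each cell line and treatment, was labelled with Cy3 and hybridised to 1-colour Agilent arrays. The authors deposited the scanner output of Agilent Feature Extraction (version 10.7), where the intensity of each spot is linear, background-subtracted and detrended, with no normalization between arrays. A deposited table of the series holds the same intensity values rounded to 3 significant digits, and 99.9956% of them were equal. The study's methods name Gene Spring GX for the array data and give no normalization or test.

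Control and outlier spots were left out, repeated spots of a probe were averaged as log2 intensity minus the array's 75th percentile, and a probe was kept where any 1 group had it well above background on both arrays. limma (version 3.58.1, R 4.3.3; lmFit, eBayes) was fitted over the 8 arrays of a line, or over 16 for contrasts between lines, with Benjamini-Hochberg adjustment over all probes kept and a threshold of 0.05. The percentages of genes called count 1 probe for each gene. With 2 arrays a group, precision is limited by their number. Probe positions are those of the files (hg19), and promoter windows are from RefSeq (GRCh38.p14).

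All probes of the 10 genes are named, and of the pathway list the genes called past 2-fold in both lines and up to 3 with the largest called change in each direction in each line. Some genes that this rule or the marker lists would name are not reported here. Genes of like pattern were to be named for members called with the combination in both lines, and there was none. Members and lists were chosen with earlier results of these data known. In RPMI-8226 same-numbered arrays deviated together in 6 of 6 pairs of groups (r across probes 0.25 to 0.42), so the numbers in the labels were taken to pair the samples there, but not in MM.1S (5 of 6 pairs over 0.1, r from 0.08 to 0.22). The main fits nevertheless used group means only, without pairing, in both lines. Pairing entered only through the replicate block, as an alternative. The SEs of the main fits therefore include differences between the replicate numbers. The labels do not state a pairing, and same-numbered arrays of a line also shared a slide row. Pairing and slide row therefore cannot be told apart.

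The fit was tested on simulated data, in which a log2 change of 1.5 was put into 200 probes, and recovered 57.5% of them in RPMI-8226 over 23198 probes (7 false of 122 calls) and 77.5% in MM.1S over 25097 (4 false of 159), for the combination against DMSO. The simulated noise was normal and independent between arrays, while same-numbered arrays deviated together in RPMI-8226 and more weakly in MM.1S. In the data 2916 probes were called in RPMI-8226 and 13465 in MM.1S, and most of the 10 genes changed by less than 1.5. These rates therefore do not carry over to the data. The alternatives were quantile normalization, a percentile over probes detected on all arrays, normexp background correction (offset 50) with quantile normalization, the series table, a filter that needed every array, no filter, a replicate block, an intensity-dependent prior variance, only the compared groups or 1 fit over all 16 arrays, the mean over a gene's probes, and each array left out.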

Additional observations from a re-analysis of the deposited data

Results flagged for a closer look

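4 responses were singled out because the test of the difference between the cell lines passed the threshold, with each value on the log2 scale as the response in RPMI-8226 minus that in MM.1S. With GSK126+UNC0638 they were -1.33 for BMF, -1.83 for BBC3 and 1.60 for PMAIP1, and with UNC0638 alone -1.31 for BMF. The BBC3 value is the least firm, since its RPMI-8226 DMSO arrays were 0.98 apart. Without the second of them it was -1.34. With an array left out, that of BMF with UNC0638 ran from -1.53 to -1.09. Both calls were lost without some of the arrays. Each line was on a slide of its own, so the line and the slide cannot be told apart.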

How the results depend on the processing

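With GSK126+UNC0638 in MM.1S no gene of the 10 changed direction under any alternative. The number called was 6 in place of 10 without the filter on dim probes (BCL2, MCL1, BCL2L11 and BID lost, limma, adjusted p from 0.0638 to 0.0733) and 7 with only the compared groups (BCL2, MCL1 and BCL2L11 lost, limma, adjusted p from 0.0555 to 0.0661), and with 1 array left out it ran from 6 to 10. Under quantile normalization and with the percentile over detected probes 6 rose and 3 fell, with BID not called. In RPMI-8226 the combination gave 2 calls in place of 0 under quantile normalization, the percentile over detected probes, normexp and an intensity-dependent prior variance (BMF and PMAIP1 higher) and in 1 fit over all 16 arrays (BMF higher, BCL2L1 lower), and 0 with any array left out. For GSK126 in MM.1S the count of 1 became 0 without the filter and with only the compared groups, 3 with the intensity-dependent variance, and 0 to 1 with an array left out. For UNC0638 in MM.1S the count of 5 became 1 without the filter, 2 with only the compared groups, and 1 to 3 with an array left out.

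Against GSK126 alone in MM.1S the count of 3 became 6 (quantile, percentile over detected probes, replicate block), 7 (normexp), 8 (intensity-dependent variance) or 5 (only the compared groups), and 2 to 4 with an array left out. Against UNC0638 alone in MM.1S the count of 2 became 4 (quantile, percentile over detected probes, intensity-dependent variance), 5 (normexp) or 1 (no filter, only the compared groups, 1 fit over all arrays, mean over probes), and 0 to 2 with an array left out. In RPMI-8226 it became 2 in place of 0 with normexp and in 1 fit over all arrays. Between the lines the count for UNC0638 became 2 (normexp, filter for all arrays, replicate block, intensity-dependent variance) or 0 (only the compared groups) in place of 1, and 0 to 1 with an array left out, and that for the combination 5 in place of 3 (quantile, normexp), 4 (percentile over detected probes, filter for all arrays, replicate block, intensity-dependent variance) or 2 (no filter, only the compared groups, with BBC3 lost at an adjusted p of 0.0544 and 0.0645 by limma), and 2 to 3 with an array left out. The DMSO groups differed for 5 to 8 genes with an array left out. The cause of these changes was not tested.

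Directions that turned were all of values not called. For GSK126 in RPMI-8226 MCL1 became 0.0239, 0.0373 and 0.061 and BAX 0.0175, 0.0227 and 0.0349 under quantile normalization, the percentile over detected probes and normexp, and BAX 0.0394 as the mean over probes. With the combination MCL1 became 0.0869, 0.107 and 0.147 under the same 3. For UNC0638 in RPMI-8226 PMAIP1 became 0.0135 under quantile normalization and 0.00572 with the percentile over detected probes, and the mean over probes gave -0.0118 for BCL2L11 and 0.0701 for BMF. In MM.1S BCL2L11 became 0.0875, 0.071 and 0.0745 with UNC0638 under the 3 scalings and -0.00503 with GSK126 as the mean over probes. With an array left out, values in RPMI-8226 ran, for GSK126, from -0.14 to 0.11 for MCL1, -0.10 to 0.32 for BAK1, -0.904 to 0.0769 for BBC3 and -0.23 to 0.00622 for BID, for UNC0638 from -0.24 to 0.0788 for BCL2, -0.0374 to 0.0238 for PMAIP1 and -0.25 to 0.20 for BMF, and for the combination from -0.0663 to 0.0020 for MCL1 and -0.84 to 0.14 for BBC3. In MM.1S they ran, for GSK126, from -0.0812 to 0.32 for BCL2, -0.0382 to 0.0665 for MCL1 and -0.0299 to 0.28 for BCL2L11, and for UNC0638 from -0.18 to 0.13 for BCL2L11.

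The percentile over detected probes moved the median of all genes with the combination by 0.14 in RPMI-8226 and 0.19 in MM.1S, and the share of calls that were higher from 61.6% to 79.0% and from 42.0% to 59.2%. For UNC0638 in MM.1S the share went from 45.2% to 62.5% there and to 55.8% under quantile normalization, and for GSK126 in MM.1S from 70.8% to 84.6% with the percentile. In MM.1S, where the replicate numbers were not taken to pair the arrays, the replicate block also called BCL2L1 with UNC0638 (limma, adjusted p = 0.0481). Between the lines it called the response of PMAIP1 to UNC0638 (limma, adjusted p = 0.0357) and of BAX to the combination (limma, adjusted p = 0.0201), and BAK1 between the DMSO groups was lost (limma, adjusted p = 0.0673). The series table and the filter for all arrays left all 64 single values on their side of the threshold. Departure from additivity uses all 4 groups of a line, so a fit of only the compared groups is the same fit.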
